A study of Mus musculus with 9 samples.

Results

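The genes described here are 33 genes of glucose use in mouse embryonic stem (ES) cells, listed by symbol. They are a glucose transporter, 16 glycolytic enzymes, 4 genes of lactate handling, 5 regulators of flux and 7 genes linked to hypoxia-inducible factor (HIF). All 33 symbols were matched to 1 of the 52636 Ensembl gene IDs of the count table, and all 33 were among the 16198 genes with enough reads to be tested. RNA was sequenced from 9 libraries, 3 from each of 3 lines named in the sample titles. The Nanog-null line, 44C6, is titled NanogKO and has the genotype label N{delta}. The Esrrb line, 44J, is titled NanogKO:Esrrb, and the Esrrb+Nanog line, 44JN, is titled NanogKO:Esrrb:Nanog. Both carry the genotype label N{delta}:cE:iN, whose abbreviations the labels do not spell out, so only the titles tell these lines apart. All 3 titles carry NanogKO. The cells received no treatment, grew in serum with leukaemia inhibitory factor, and were sorted as PECAM positive and PDGFRA negative. The oxygen level of the cultures is not given in the labels. With 1 line per group, effects of the added gene cannot be told apart from those of the line. Whether replicates were grown as separate cultures is not stated, so p-values measure only the spread between these libraries, which may be technical. In such bulk RNA, fewer cells of a type and less RNA per cell cannot be told apart.

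Glycolysis splits glucose into pyruvate in the cytosol. Hexokinases trap glucose, phosphofructokinases commit it to the pathway, and enzymes from aldolase to pyruvate kinase recover energy. Lactate dehydrogenase converts pyruvate to lactate, which monocarboxylate transporters carry across the membrane, and pyruvate dehydrogenase kinases hold pyruvate back from the mitochondria. Most of these steps have several genes for the same reaction (isoenzymes), some of which HIF induces when oxygen is low. Mouse ES cells in serum use both glycolysis and respiration, and Esrrb, an orphan nuclear receptor of the oestrogen-related family, belongs to a family known for control of energy metabolism genes. Nanog is a homeodomain factor of the naive pluripotency network.

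HIF binds a core of 5 bases, ACGTG or GCGTG, and oestrogen-related receptors bind AAGGTCA, often within the longer TCAAGGTCA. RefSeq promoter windows (GRCm38.p6, 250 bases before to 50 after a start) were listed for 32 of the 33 genes, all but Ndrg1, with 49 windows in all. ACGTG or GCGTG was read on either strand in at least 1 window of 29 of these 32 genes (90.6%), all but Gpi1, Tpi1 and Eno2, and in 46.7% of all 27025 symbols. By window, 39 of 49 (79.6%) held it, against 43.8% of all 32851 windows. The windows of these genes were richer in G and C, with a median of 62% against 52.7% for all windows, and the part of this difference in the match count was not tested. AAGGTCA was read in 2 of 32 genes (6.25%), Tpi1 and Eno1, against 5.38% of all symbols. TCAAGGTCA was read in 0 of 32 genes, and in 0.466% of all symbols. A match is a description of the letters in the window, not evidence of binding. Stretches of 180 bases before the start are given for 7 of the genes. Each stretch leaves out bases that GENCODE M21 places in an exon, and where a gene had several windows the first listed was read, as for Ldha with 2 and Eno1 with 3. Capitals mark the HIF core or its complement, and in Eno1 the AAGGTCA match. Matches outside a stretch are not shown, such as GCGTG at -230 bases from the start in the Eno1 window read. A run of CACGTG reads the same on both strands and so holds 2 overlapping matches. The stretches lie at chr4:119108531-119108710 on the plus strand (Slc2a1), chr6:82774455-82774634 on the minus strand (Hk2), chr4:150236528-150236707 on the plus strand (Eno1) and chrX:106186920-106187099 on the plus strand (Pgk1). Those of the lactate and mitophagy genes lie at chr7:46845624-46845803 on the plus strand (Ldha), chr11:120948873-120949052 on the plus strand (Slc16a3) and chr7:138909520-138909699 on the minus strand (Bnip3), all in GRCm38.p6.
Slc2a1: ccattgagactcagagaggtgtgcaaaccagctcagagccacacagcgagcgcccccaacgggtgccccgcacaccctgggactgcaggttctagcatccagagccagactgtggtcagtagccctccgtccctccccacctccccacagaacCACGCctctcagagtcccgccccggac
Hk2: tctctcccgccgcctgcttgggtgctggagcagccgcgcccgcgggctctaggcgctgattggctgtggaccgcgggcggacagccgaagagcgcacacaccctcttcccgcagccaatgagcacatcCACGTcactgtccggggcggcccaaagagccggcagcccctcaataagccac
Eno1: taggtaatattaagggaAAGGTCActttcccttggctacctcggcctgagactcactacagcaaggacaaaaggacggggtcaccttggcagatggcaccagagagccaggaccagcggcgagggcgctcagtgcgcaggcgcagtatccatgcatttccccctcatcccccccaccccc
Pgk1: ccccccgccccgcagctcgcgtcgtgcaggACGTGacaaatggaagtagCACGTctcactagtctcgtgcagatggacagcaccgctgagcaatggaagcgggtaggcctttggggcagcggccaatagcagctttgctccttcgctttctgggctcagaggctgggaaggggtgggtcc
Ldha: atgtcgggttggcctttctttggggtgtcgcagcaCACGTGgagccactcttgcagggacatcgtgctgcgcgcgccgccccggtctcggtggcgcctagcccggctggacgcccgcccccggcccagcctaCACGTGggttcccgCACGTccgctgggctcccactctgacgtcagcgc
Slc16a3: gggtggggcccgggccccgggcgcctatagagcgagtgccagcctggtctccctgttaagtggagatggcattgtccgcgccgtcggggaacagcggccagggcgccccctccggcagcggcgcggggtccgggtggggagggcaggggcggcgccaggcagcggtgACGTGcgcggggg
Bnip3: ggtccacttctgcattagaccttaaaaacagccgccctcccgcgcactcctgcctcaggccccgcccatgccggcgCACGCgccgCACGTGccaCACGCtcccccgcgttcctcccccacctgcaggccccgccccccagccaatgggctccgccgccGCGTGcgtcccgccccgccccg

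Library totals ran from 21808120 to 32496267 counts. Levels are given as CPM, counts scaled to library size and composition, and log2 changes are given ± SE. Nanog read 14.3, 14.3 and 16.0 CPM in the Nanog-null line, 29.7, 35.1 and 30.4 CPM in the Esrrb line and 221, 289.5 and 333 CPM in the Esrrb+Nanog line, and Esrrb read 273, 253 and 303 CPM in the Nanog-null line, 769, 949 and 692 CPM in the Esrrb line and 1113, 1151 and 1056 CPM in the Esrrb+Nanog line, so neither altered gene overlapped between lines. The deleted part of Nanog is not given in the labels, so the counts check the added copies and not the deletion. Nanog counts in the Esrrb line were also above those of every Nanog-null library, so the Esrrb and Nanog-null lines differ in the counts of both genes. Esrrb RNA was itself 1.38-fold higher in the Esrrb+Nanog line than in the Esrrb line (log2 change of 0.46 ± 0.10, adjusted p = 0.0133 by the edgeR quasi-likelihood test), so those lines differ in both genes. That call ended on leaving out Esrrb replicate 1 (0.0633) or Esrrb+Nanog replicate 2 (0.0544), where the number in parentheses is the adjusted p without that library, or under another setting named before it, here and throughout. The 10 ES cell markers checked were all above 1 CPM in every line, summing to 4464 to 4675 CPM in the Nanog-null line, 5369 to 5485 CPM in the Esrrb line and 4572 to 4914 CPM in the Esrrb+Nanog line. Markers of 3 other cell types were lower. The 12 primitive endoderm markers summed to 219 to 451, 326 to 463 and 481 to 563 CPM in the same order of lines, the 10 trophoblast markers to 59.8 to 203, 26.8 to 31.4 and 35.9 to 46.3 CPM, and the 8 fibroblast markers to 13.7 to 83.4, 7.38 to 13.8 and 7.57 to 14.1 CPM. Lama1 alone averaged 43.6, 136 and 356 CPM of the primitive endoderm sum, so that sum does not stand for the whole list. From the Esrrb to the Esrrb+Nanog line Lama1 was called higher, while Dab2, Gata6 and Pdgfra were called lower. These calls are 36.4% of the 11 tested endoderm markers, beside 13.2% of all tested genes. Foxa2 of primitive endoderm, Cdx2, Elf5 and Plac1 of trophoblast, and Col3a1, Postn, Dcn and Lum of fibroblasts had a mean under 1 CPM in every line. In the Esrrb line 7 of the 8 fibroblast markers, all but Thy1, were under 1 CPM, so their sum does not stand for the whole list. Thy1 was called higher there than in the Nanog-null line, and Acta2, Col1a1 and Col1a2 lower. These are 100% of the 4 tested fibroblast markers, beside 48.5% of all tested genes. Nanog-null replicate 2 was the highest of its line in each of these 3 lists, and the part of these markers in the results was not tested.

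Per kilobase of exon, the same 3 genes led in every line. Pkm (pyruvate kinase) read 635, 644 and 524 CPM per kilobase in the Nanog-null, Esrrb and Esrrb+Nanog lines, Aldoa (aldolase A) read 602, 605 and 461, and Gapdh (glyceraldehyde-3-phosphate dehydrogenase) read 403, 426 and 350.3. With the longest transcript as the length in place of the union of exons, Pkm and Aldoa kept these places and Gapdh ranked 4, 5 and 3. Ankrd37, Pfkfb2, Ndrg1, Eno2 and Pdk2 held the lowest 5 places in every line by the union of exons, each under 3 CPM per kilobase. The 33 genes thus spanned from abundant enzyme messages to rare ones.

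**Figure D1:**
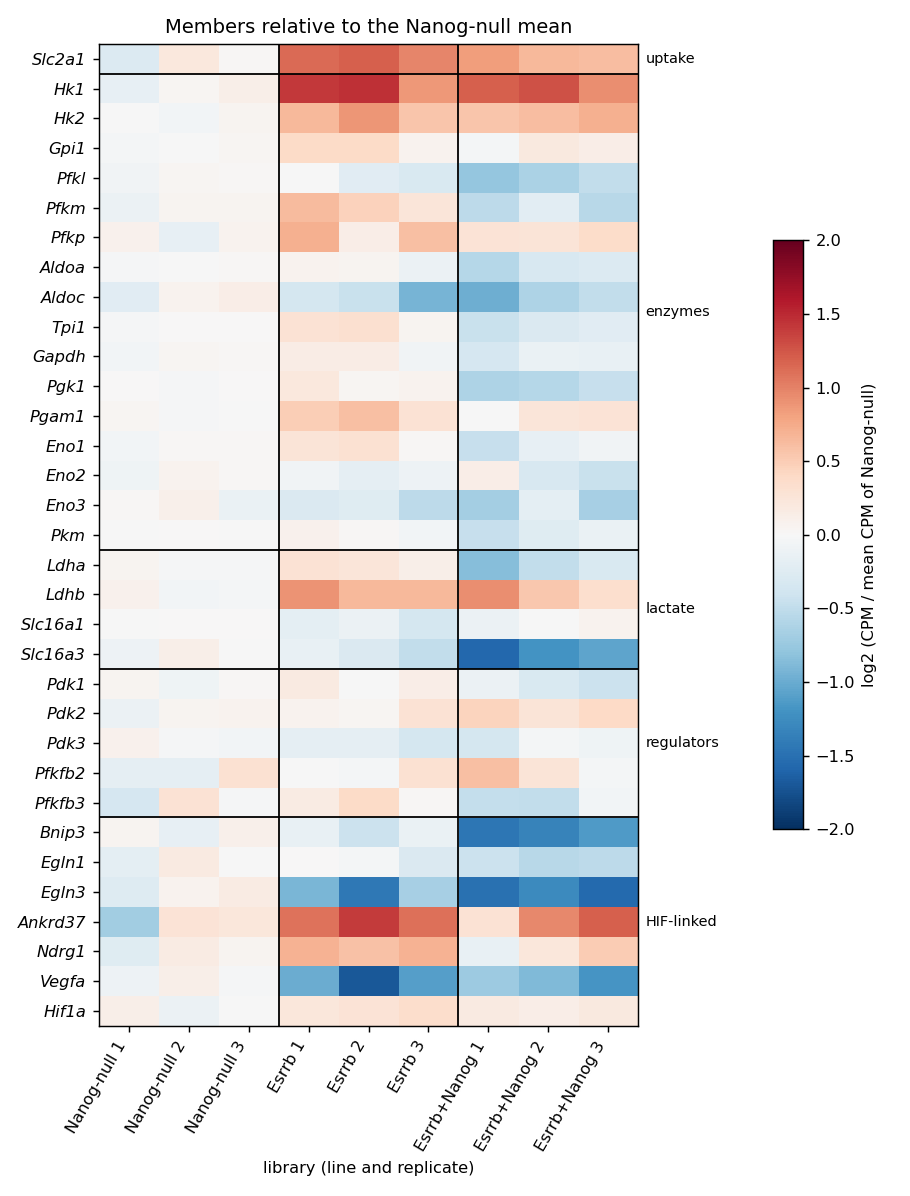
Level of each of the 33 genes (vertical axis, grouped by role) in each of the 9 libraries (horizontal axis) as log2 of its CPM over the mean of the Nanog-null libraries. Slc2a1, Hk1, Hk2 and Ldhb are above the Nanog-null mean in all 6 libraries of the other lines, while Bnip3, Slc16a3, Egln3 and Vegfa are below it in all 6.

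The glucose transporter gene Slc2a1 and the hexokinase genes Hk1 and Hk2, whose products trap glucose in the cell, were higher in the Esrrb line than in the Nanog-null line. Also called higher were Gpi1, Pfkm, Pfkp, Tpi1, Pgam1, Ldhb, Hif1a, Ankrd37 and Ndrg1, while Aldoc, Eno3, Slc16a1, Egln3 and Vegfa fell. Gapdh, Pgk1, Pkm, Aldoa and Ldha did not pass the test, with log2 changes from 0.01 to 0.22. A gene is called where the adjusted p of the edgeR quasi-likelihood test is below 0.05. Of the 33 genes, 12 were called higher and 5 lower, 51.5% in all, beside 48.5% of all 16198 tested genes (24.2% higher and 24.2% lower). The share called was thus near that of all genes and is no result about these genes as a group. Their median log2 change was 0.11, with a range of -1.24 to 1.27, beside a median of 0.01 over all tested genes. The count of genes called lower was 3 without Esrrb replicate 3, and 8 with library totals in place of the scaling factors or with no low-count filter. Without Nanog-null replicate 2, whose fibroblast and trophoblast markers were the highest, the counts were 10 higher and 5 lower.

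Genes at several steps of the pathway were lower in the Esrrb+Nanog line than in the Esrrb line. Of the 33 genes, 14 fell and 0 were called higher, 42.4% in all, beside 13.2% of all tested genes (5.43% higher and 7.75% lower). The 33 genes were chosen with earlier results of these data known, so the contrast with all genes is a description. It was not tested, nor was the part of their abundance in it. The genes that fell were Slc2a1, Pfkl, Pfkm, Aldoa, Tpi1, Gapdh, Pgk1, Eno1, Pkm, Ldha, Slc16a3, Pdk1, Bnip3 and Egln1. The largest falls were in Bnip3, a mitochondrial protein of mitophagy, in Slc16a3, the lactate exporter MCT4, in Pfkm and in Ldha. The median log2 change of the 33 genes was -0.30, with a range of -1.07 to 0.32, and 28 of 33 were below 0, beside a median of -0.01 over all tested genes. At an unadjusted p under 0.05, the single gene Slc16a1 was higher (1 of 33), and DESeq2 called 0 higher and 16 lower. The count called lower was 8 without Esrrb replicate 1, when the count over all genes also dropped from 2135 to 1105.

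Against the Nanog-null line, the Esrrb+Nanog line had more RNA of the transporter gene Slc2a1 and of the hexokinase genes Hk1 and Hk2. Ldhb, Pdk2, Hif1a and Ankrd37 also rose. Pfkl, Pfkm, Aldoa, Aldoc, Tpi1, Gapdh, Pgk1, Eno3, Pkm, Ldha, Slc16a3, Pdk1, Bnip3, Egln1, Egln3 and Vegfa fell. Other genes of the same steps were not called, with log2 changes of 0.30 ± 0.12 (adjusted p = 0.054) for Pfkp, 0.17 ± 0.090 (adjusted p = 0.119) for Pgam1, -0.22 ± 0.098 (adjusted p = 0.0801) for Eno1 and -0.02 ± 0.069 (adjusted p = 0.85) for Slc16a1. The called genes are 7 higher and 16 lower of 33, 69.7% in all, beside 54.4% of all tested genes (27.2% higher and 27.2% lower). The median log2 change of the 33 genes was -0.22, with a range of -1.44 to 1.13, beside a median of 0.00 over all tested genes. This comparison shares its libraries with both of the others, so the 3 comparisons are not independent. The count of genes called higher was 4 without Esrrb+Nanog replicate 3. Pfkfb2, Pfkfb3, Pdk3 and Eno2 were called in none of the 3 comparisons, although Pfkfb3, Pdk3 and Eno2 were called under other settings that are named with their values. The other 29 were called in at least 1.

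**Figure D2:**
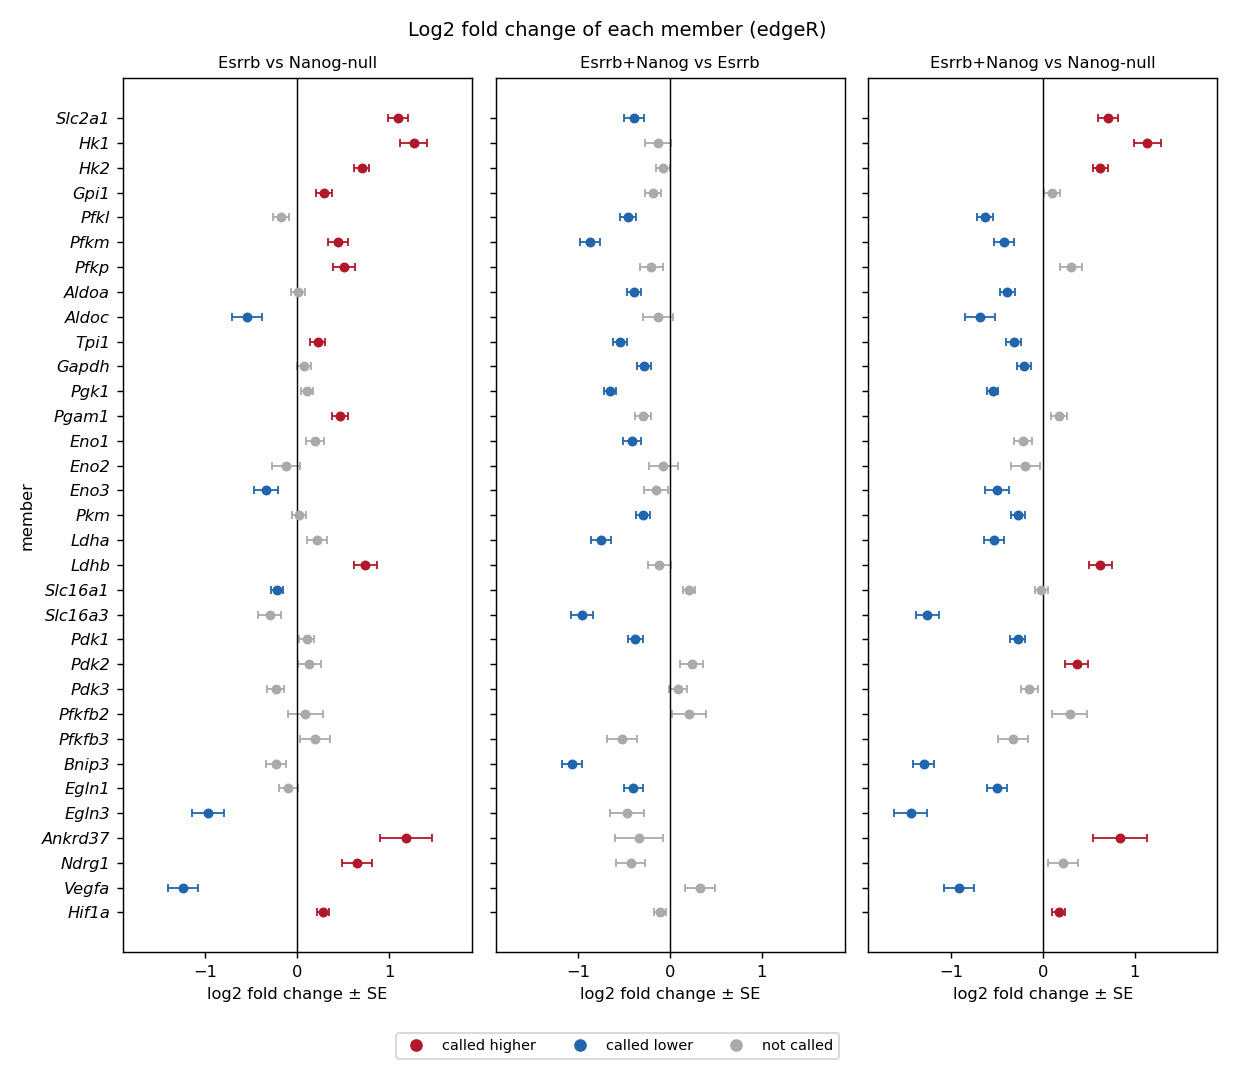
Log2 fold change (horizontal axis) of each of the 33 genes (vertical axis, grouped by role) in the 3 comparisons, 1 panel each. Bars are ± 1 SE from the edgeR fit. Points are red where called higher and blue where called lower (adjusted p below 0.05), and grey where not called. The middle panel, the Esrrb+Nanog line relative to the Esrrb line, has 14 blue points and no red ones. The other panels have both red and blue points.

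Slc2a1 (ENSMUSG00000028645, chr4:119108711-119137983, plus strand GENCODE M21 on mm10, as for all genes here), the glucose transporter GLUT1, brings glucose into the cell. Slc2a1 read 405, 566 and 494 CPM in the Nanog-null line, 1068, 1118 and 958 CPM in the Esrrb line and 868, 769 and 750.1 CPM in the Esrrb+Nanog line. The 3 lines did not overlap, with the Esrrb line highest and the Nanog-null line lowest. It was 2.15-fold higher in the Esrrb line than in the Nanog-null line (log2 change of 1.10 ± 0.11, adjusted p = 1.03e-05) and 1.63-fold higher in the Esrrb+Nanog line (log2 change of 0.70 ± 0.11, adjusted p = 0.000206). It fell from the Esrrb to the Esrrb+Nanog line (log2 change of -0.40 ± 0.11, adjusted p = 0.0332), a call that ended on leaving out Nanog-null replicate 3 (0.0632), Esrrb replicate 1 (0.105), 2 (0.0691), Esrrb+Nanog replicate 2 (0.114) or 3 (0.101), or with library totals (0.0772). Slc2a1, the single uptake gene among the 33, thus had its highest level in the Esrrb line. Slc2a3, the neuronal-type transporter GLUT3, averaged 1337 ± 205 CPM in the Nanog-null line, 1176 ± 41.5 CPM in the Esrrb line and 1312 ± 308 CPM in the Esrrb+Nanog line (mean ± SD, n = 3). It was not called, with log2 changes of -0.19 ± 0.14 (adjusted p = 0.31) in the Esrrb line and -0.03 ± 0.14 (adjusted p = 0.889) in the Esrrb+Nanog line relative to the Nanog-null line. The first was called lower with no low-count filter (0.0148).

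Of the 16 enzymes, 7 rose and 2 fell in the Esrrb line relative to the Nanog-null line, 8 fell from the Esrrb to the Esrrb+Nanog line, and 2 rose and 9 fell in the Esrrb+Nanog line relative to the Nanog-null line. Their median log2 changes were 0.15, -0.29 and -0.25 in that order, and 56.25%, 50% and 68.75% were called. Among all tested genes 48.5%, 13.2% and 54.4% were called, the background also for the lactate, regulator and HIF-linked counts below. Hexokinases, the first of these enzymes, trap glucose in the cell as glucose-6-phosphate. Hk2 (ENSMUSG00000000628, chr6:82725025-82774454, minus strand), the inducible form, read 315, 308 and 332 CPM in the Nanog-null line, 501, 587 and 468 CPM in the Esrrb line and 466, 487 and 522 CPM in the Esrrb+Nanog line. Every library of the lines with added Esrrb was above every Nanog-null library. Hk2 was 1.63-fold higher in the Esrrb line (log2 change of 0.70 ± 0.082, adjusted p = 3.20e-05) and 1.54-fold higher in the Esrrb+Nanog line (log2 change of 0.63 ± 0.081, adjusted p = 5.66e-05), both against the Nanog-null line. Hk1 (ENSMUSG00000037012, chr10:62268855-62379908, minus strand), the housekeeping form, read 42.9, 49.4 and 52.0 CPM in the Nanog-null line, 127, 132 and 87.6 CPM in the Esrrb line and 109.9, 116 and 91.2 CPM in the Esrrb+Nanog line. It was also above all Nanog-null libraries in both other lines, with the largest rise of the 33 genes in the Esrrb line (2.41-fold, log2 change of 1.27 ± 0.15, adjusted p = 2.98e-05) and a 2.20-fold rise in the Esrrb+Nanog line (log2 change of 1.13 ± 0.15, adjusted p = 5.12e-05). Between the Esrrb and Esrrb+Nanog lines both genes overlapped, with log2 changes of -0.13 ± 0.14 (adjusted p = 0.594) for Hk1 and -0.08 ± 0.081 (adjusted p = 0.588) for Hk2. Gpi1 (glucose-6-phosphate isomerase) rose slightly in the Esrrb line (log2 change of 0.29 ± 0.086, adjusted p = 0.016), a call that ended on leaving out Nanog-null replicate 1 (0.075), 2 (0.0541), Esrrb replicate 1 (0.0696) or 2 (0.0546). Its log2 changes in the Esrrb+Nanog line were -0.19 ± 0.086 (adjusted p = 0.186) against the Esrrb line, called on leaving out Esrrb replicate 3 (0.0374), and 0.10 ± 0.086 (adjusted p = 0.343) against the Nanog-null line.

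Phosphofructokinase, the committed step, is made of liver (Pfkl), muscle (Pfkm) and platelet (Pfkp) type subunits. Pfkm (ENSMUSG00000033065, chr15:98092589-98132451, plus strand) read 84.8, 95.6 and 95.5 CPM in the Nanog-null line, 142, 126 and 108 CPM in the Esrrb line and 64.1, 79.2 and 62.9 CPM in the Esrrb+Nanog line. The 3 lines did not overlap, with the Esrrb line highest and the Esrrb+Nanog line lowest. Pfkm rose in the Esrrb line (log2 change of 0.45 ± 0.11, adjusted p = 0.00498), and in the Esrrb+Nanog line it was lower than in the Esrrb line (log2 change of -0.87 ± 0.11, adjusted p = 0.0005) and than in the Nanog-null line (log2 change of -0.42 ± 0.11, adjusted p = 0.00645). Pfkl (ENSMUSG00000020277, chr10:77986947-78010083, minus strand) read 480.3, 514 and 513 CPM in the Nanog-null line, 501, 429.8 and 407 CPM in the Esrrb line and 293, 323 and 357 CPM in the Esrrb+Nanog line. All 3 Esrrb+Nanog libraries lay below all 6 others, with falls against the Esrrb line (log2 change of -0.46 ± 0.088, adjusted p = 0.00577) and the Nanog-null line (log2 change of -0.63 ± 0.088, adjusted p = 9.52e-05). Pfkl in the Esrrb line overlapped the Nanog-null line (log2 change of -0.17 ± 0.087, adjusted p = 0.122), and the change was called on leaving out Esrrb replicate 1 (0.0308), or with no low-count filter (0.0444). Pfkp rose in the Esrrb line (log2 change of 0.51 ± 0.12, adjusted p = 0.00498). In the Esrrb+Nanog line Pfkp had log2 changes of -0.20 ± 0.12 (adjusted p = 0.315) against the Esrrb line, called on leaving out Esrrb replicate 2 (0.0124), and 0.30 ± 0.12 (adjusted p = 0.054) against the Nanog-null line, called on leaving out Esrrb replicate 1 (0.0383) or 2 (0.00376), or with library totals (0.0331), no low-count filter (0.000103), a replicate block (0.0113), only those 2 lines fitted (0.00558) or DESeq2 (0.0467).

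Aldolase, triosephosphate isomerase and the enzymes that follow split the sugar and recover energy. Pgk1 (ENSMUSG00000062070, chrX:106187100-106203699, plus strand), phosphoglycerate kinase, which makes the first ATP of the pathway, read 417, 409 and 418 CPM in the Nanog-null line, 478, 427 and 436 CPM in the Esrrb line and 271, 279 and 301 CPM in the Esrrb+Nanog line. Its Esrrb+Nanog libraries all lay below the 6 others, and its fall had the smallest adjusted p of the 33 genes between the Esrrb and Esrrb+Nanog lines (1.58-fold lower, log2 change of -0.66 ± 0.062, adjusted p = 7.29e-05). Against the Nanog-null line it also fell (log2 change of -0.55 ± 0.062, adjusted p = 1.94e-05), while the Esrrb line had a log2 change of 0.11 ± 0.062 (adjusted p = 0.17). Gapdh (ENSMUSG00000057666, chr6:125161715-125166467, minus strand) read 1599, 1712 and 1691 CPM in the Nanog-null line, 1855, 1838 and 1589.6 CPM in the Esrrb line and 1319, 1524 and 1501 CPM in the Esrrb+Nanog line. The Esrrb+Nanog line was lowest and did not overlap the others. Gapdh, a common reference gene, fell against the Esrrb line (log2 change of -0.28 ± 0.076, adjusted p = 0.0314) and the Nanog-null line (log2 change of -0.20 ± 0.076, adjusted p = 0.0393). The first call ended on leaving out Nanog-null replicate 3 (0.0634), Esrrb replicate 1 (0.13), 2 (0.0667), Esrrb+Nanog replicate 1 (0.0974) or 2 (0.0544), or with library totals (0.06) or only those 2 lines fitted (0.07), and the second ended on leaving out Nanog-null replicate 2 (0.102), 3 (0.0947), Esrrb replicate 1 (0.0504) or Esrrb+Nanog replicate 1 (0.115), or with library totals (0.0526).

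Aldoa, the main aldolase, averaged 1753 ± 30.0 CPM in the Nanog-null line, 1762 ± 127 CPM in the Esrrb line and 1342 ± 141 CPM in the Esrrb+Nanog line. It fell in the Esrrb+Nanog line relative to the Esrrb line (log2 change of -0.39 ± 0.080, adjusted p = 0.00765) and the Nanog-null line (log2 change of -0.39 ± 0.080, adjusted p = 0.00153). Aldoc (ENSMUSG00000017390, chr11:78322968-78327781, plus strand), the brain-type aldolase, read 18.6, 22.8 and 23.9 CPM in the Nanog-null line, 17.1, 16.0 and 11.4 CPM in the Esrrb line and 11.1, 14.2 and 15.5 CPM in the Esrrb+Nanog line. The Nanog-null libraries were the highest, and the other 2 lines overlapped. Aldoc fell in the Esrrb line (log2 change of -0.55 ± 0.16, adjusted p = 0.0149), a call that ended on leaving out Nanog-null replicate 3 (0.0564), and in the Esrrb+Nanog line relative to the Nanog-null line (log2 change of -0.68 ± 0.16, adjusted p = 0.00406). Tpi1, triosephosphate isomerase, was slightly higher in the Esrrb line (log2 change of 0.22 ± 0.078, adjusted p = 0.0336), a call that ended on leaving out Nanog-null replicate 1 (0.124), 2 (0.0848), 3 (0.112), Esrrb replicate 1 (0.114) or 2 (0.112), or with library totals (0.0526) or only genes of at least 5 CPM in 3 libraries (0.0515). It was lower in the Esrrb+Nanog line than in the Esrrb line (log2 change of -0.54 ± 0.078, adjusted p = 0.00113) and the Nanog-null line (log2 change of -0.32 ± 0.078, adjusted p = 0.00454).

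Among the last enzymes, Pgam1 (phosphoglycerate mutase) rose in the Esrrb line (log2 change of 0.47 ± 0.089, adjusted p = 0.00115). Its log2 change from there to the Esrrb+Nanog line was -0.29 ± 0.089 (adjusted p = 0.0511), called on leaving out Esrrb replicate 3 (0.0218), or with no low-count filter (0.00274) or DESeq2 (0.0348). Against the Nanog-null line Pgam1 in the Esrrb+Nanog line was at 0.17 ± 0.090 (adjusted p = 0.119), called on leaving out Esrrb+Nanog replicate 1 (0.0229). Eno1 (alpha-enolase) averaged 965 ± 29.9 CPM in the Nanog-null line, 1107 ± 109 CPM in the Esrrb line and 829.5 ± 115 CPM in the Esrrb+Nanog line. It fell in the Esrrb+Nanog line relative to the Esrrb line (log2 change of -0.42 ± 0.098, adjusted p = 0.0171), a call that ended on leaving out Esrrb replicate 1 (0.072). Its other log2 changes were 0.20 ± 0.098 (adjusted p = 0.115) in the Esrrb line, called on leaving out Esrrb replicate 3 (0.0373), or with no low-count filter (0.0142) or only those 2 lines fitted (0.0452), and -0.22 ± 0.098 (adjusted p = 0.0801) in the Esrrb+Nanog line relative to the Nanog-null line, called on leaving out Esrrb+Nanog replicate 3 (0.0312), or with no low-count filter (0.00458). Eno1 is uncertain, because its near-identical copy Eno1b held 131 to 218 CPM and reads could be split between them. Eno1b had a log2 change of -0.43 ± 0.097 (adjusted p = 0.0143) in the same comparison, a call that ended on leaving out Esrrb replicate 1 (0.0647). Of 19 annotated copies and pseudogenes of these genes, the other 18 were under 1 CPM in every library. Eno3, the muscle enolase, fell in the Esrrb line (log2 change of -0.35 ± 0.13, adjusted p = 0.046) and in the Esrrb+Nanog line relative to the Nanog-null line (log2 change of -0.50 ± 0.13, adjusted p = 0.00714). The first call ended on leaving out Nanog-null replicate 1 (0.0801), 2 (0.121), Esrrb replicate 1 (0.0808) or 3 (0.148). Eno2, the neuronal enolase, stayed within 4.76 to 7.09 CPM and was called in no comparison, except against the Nanog-null line on leaving out Esrrb+Nanog replicate 1 (0.0329). Pkm fell in the Esrrb+Nanog line relative to the Esrrb line (log2 change of -0.30 ± 0.077, adjusted p = 0.0271) and the Nanog-null line (log2 change of -0.28 ± 0.077, adjusted p = 0.00965). The first call ended on leaving out Nanog-null replicate 3 (0.0531), Esrrb replicate 1 (0.115) or Esrrb+Nanog replicate 2 (0.0709), or with only those 2 lines fitted (0.0676).

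**Figure D3:**
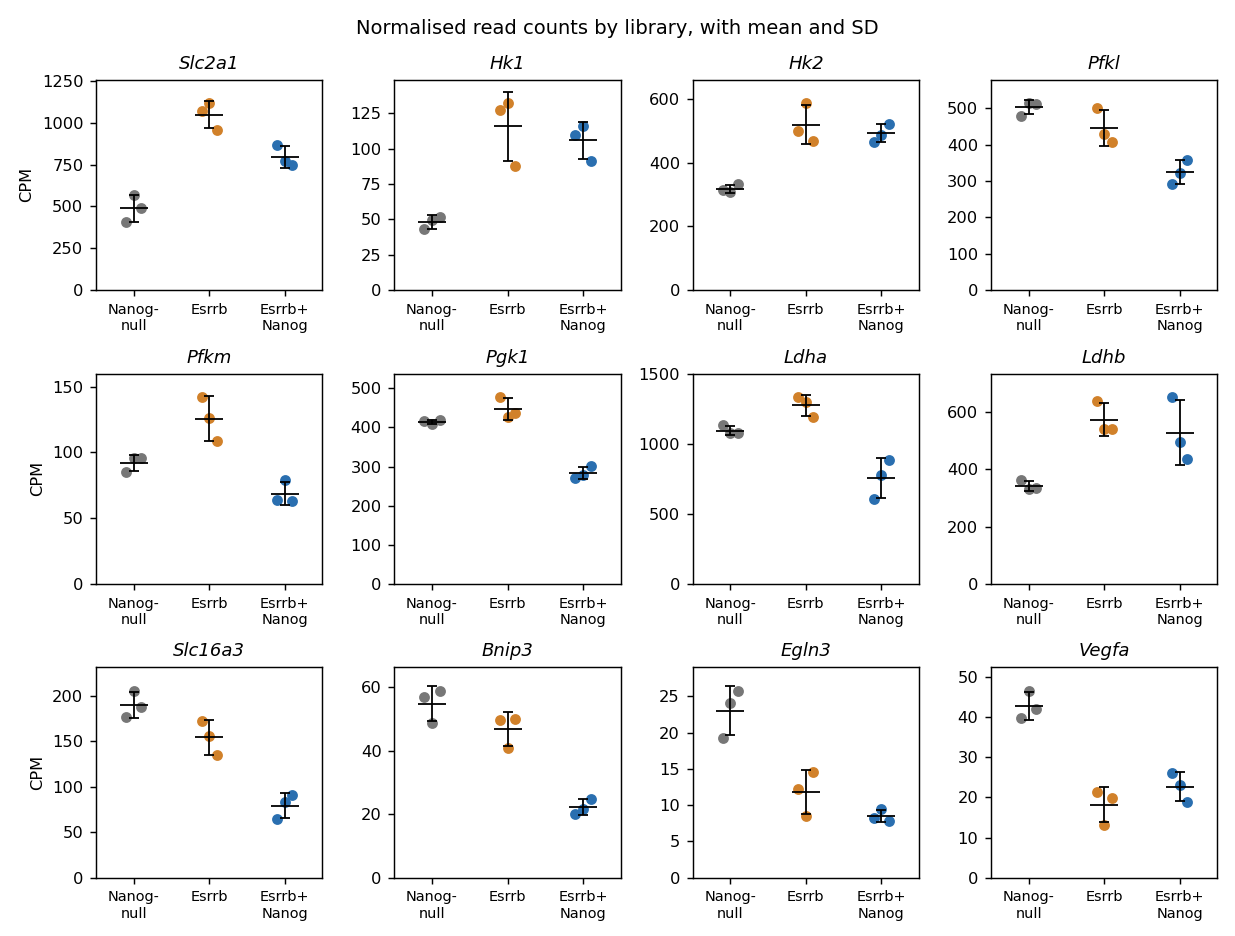
CPM (vertical axis) of 12 of the genes in each library, with points for the 3 libraries of each line and a dash at their mean and error bars of ± 1 SD. Bnip3, Slc16a3, Pgk1 and Ldha have their 3 Esrrb+Nanog points below all others, while Hk1 and Hk2 have their 3 Nanog-null points below all others.

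Of the 4 lactate genes, 1 rose (Ldhb) and 1 fell (Slc16a1) in the Esrrb line relative to the Nanog-null line. Ldha and Slc16a3 fell in the Esrrb+Nanog line in both comparisons, and Ldhb rose there against the Nanog-null line. Ldha (ENSMUSG00000063229, chr7:46841475-46855627, plus strand), the dehydrogenase subunit that favours lactate formation, read 1136, 1078 and 1081 CPM in the Nanog-null line, 1339, 1299 and 1195 CPM in the Esrrb line and 609.6, 778 and 888 CPM in the Esrrb+Nanog line. All Esrrb+Nanog libraries were below all others, and replicate 1 of that line was the lowest. Ldha was 1.68-fold lower in the Esrrb+Nanog line than in the Esrrb line (log2 change of -0.75 ± 0.11, adjusted p = 0.00113) and 1.45-fold lower than in the Nanog-null line (log2 change of -0.53 ± 0.11, adjusted p = 0.00139). In the Esrrb line its log2 change was 0.22 ± 0.11 (adjusted p = 0.116), called on leaving out Esrrb+Nanog replicate 1 (0.0193), or with no low-count filter (0.00536) or only those 2 lines fitted (0.011). Ldhb (ENSMUSG00000030246, chr6:142490249-142507957, minus strand), the subunit that favours the reverse reaction, read 363, 331 and 335 CPM in the Nanog-null line, 639.7, 539 and 540.1 CPM in the Esrrb line and 652, 497 and 435 CPM in the Esrrb+Nanog line. Every library with added Esrrb was above every Nanog-null library, 1.67-fold in the Esrrb line (log2 change of 0.74 ± 0.13, adjusted p = 0.000494) and 1.54-fold in the Esrrb+Nanog line (log2 change of 0.62 ± 0.13, adjusted p = 0.0013). Ldhb was not called between the Esrrb and Esrrb+Nanog lines (log2 change of -0.12 ± 0.12, adjusted p = 0.585).

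Slc16a3 (ENSMUSG00000025161, chr11:120948480-120960868, plus strand), the monocarboxylate transporter MCT4 known for lactate export, read 177, 206 and 188 CPM in the Nanog-null line, 172, 156 and 135 CPM in the Esrrb line and 64.2, 82.9 and 91.2 CPM in the Esrrb+Nanog line. The Esrrb+Nanog libraries were all below 92 CPM and the 6 others all above 134 CPM. The fall was 1.94-fold against the Esrrb line (log2 change of -0.96 ± 0.12, adjusted p = 0.000553) and 2.40-fold against the Nanog-null line (log2 change of -1.26 ± 0.12, adjusted p = 6.54e-06). Between the Esrrb and Nanog-null lines its log2 change was -0.30 ± 0.12 (adjusted p = 0.0573), called on leaving out Nanog-null replicate 1 (0.0445), Esrrb replicate 1 (0.038), Esrrb+Nanog replicate 1 (0.0142) or 3 (0.0429), or with library totals (0.0307), no low-count filter (0.000429), only genes of at least 5 CPM in 3 libraries (0.0486) or only those 2 lines fitted (0.0242). Slc16a1, the widely expressed transporter MCT1, averaged 188 ± 1.45 CPM in the Nanog-null line, 161 ± 12.7 CPM in the Esrrb line and 186 ± 11.6 CPM in the Esrrb+Nanog line. It fell slightly in the Esrrb line (log2 change of -0.22 ± 0.069, adjusted p = 0.0188), a call that ended on leaving out Esrrb replicate 3 (0.0781). Its log2 change from the Esrrb to the Esrrb+Nanog line was 0.20 ± 0.069 (adjusted p = 0.0727), called higher on leaving out Esrrb replicate 2 (0.0344) or Esrrb+Nanog replicate 1 (0.0397), or with library totals (0.0185).

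Of the 5 regulators, 0 were called by edgeR in the Esrrb line relative to the Nanog-null line, 1 of them (Pdk3, lower) had an unadjusted p under 0.05, and DESeq2 called 0. From the Esrrb to the Esrrb+Nanog line 1 fell, and against the Nanog-null line 1 rose and 1 fell. Pdk1, a pyruvate dehydrogenase kinase known as a HIF target, averaged 421 ± 22.5 CPM in the Nanog-null line, 453 ± 29.6 CPM in the Esrrb line and 348 ± 38.1 CPM in the Esrrb+Nanog line. It fell in the Esrrb+Nanog line relative to the Esrrb line (log2 change of -0.38 ± 0.082, adjusted p = 0.0108) and the Nanog-null line (log2 change of -0.28 ± 0.082, adjusted p = 0.0135). These calls ended on leaving out Esrrb replicate 1 (0.0552) for the first and on leaving out Esrrb+Nanog replicate 3 (0.0609) for the second. Pdk2 averaged 5.95 ± 0.419 CPM in the Nanog-null line, 6.54 ± 0.629 CPM in the Esrrb line and 7.69 ± 0.508 CPM in the Esrrb+Nanog line. It rose in the Esrrb+Nanog line relative to the Nanog-null line (log2 change of 0.37 ± 0.13, adjusted p = 0.0266), a call that ended on leaving out Nanog-null replicate 1 (0.0978), 3 (0.0555), Esrrb+Nanog replicate 1 (0.0731) or 3 (0.0663), or with no low-count filter (0.0831). Pdk3 averaged 30.2 ± 1.65 CPM in the Nanog-null line, 25.7 ± 1.73 CPM in the Esrrb line and 27.2 ± 3.03 CPM in the Esrrb+Nanog line. It was called lower in the Esrrb line on leaving out Esrrb+Nanog replicate 1 (0.022), or with library totals (0.0279), only genes of at least 5 CPM in 3 libraries (0.0377) or only those 2 lines fitted (0.046). Pfkfb3 and Pfkfb2 make fructose-2,6-bisphosphate, the activator of phosphofructokinase. Pfkfb3 averaged 27.2 ± 5.83 CPM in the Nanog-null line, 31.2 ± 4.08 CPM in the Esrrb line and 21.7 ± 3.90 CPM in the Esrrb+Nanog line. Its log2 change from the Esrrb to the Esrrb+Nanog line was -0.52 ± 0.16 (adjusted p = 0.0547). That change was called on leaving out Nanog-null replicate 1 (0.0401), 2 (0.0383) or Esrrb+Nanog replicate 3 (0.0282), or with no low-count filter (2.72e-05), a replicate block (0.0357), only those 2 lines fitted (0.044) or DESeq2 (0.0215). Against the Nanog-null line Pfkfb3 in the Esrrb+Nanog line was at -0.33 ± 0.16 (adjusted p = 0.111), called on leaving out Nanog-null replicate 1 (0.0259) or Esrrb+Nanog replicate 3 (0.0326), or with no low-count filter (0.00827). Pfkfb2 averaged 6.48 ± 1.31 CPM in the Nanog-null line, 6.93 ± 0.925 CPM in the Esrrb line and 7.97 ± 1.77 CPM in the Esrrb+Nanog line.

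Of the 7 HIF-linked genes, 3 rose and 2 fell in the Esrrb line relative to the Nanog-null line. From the Esrrb to the Esrrb+Nanog line 2 fell. In the Esrrb+Nanog line relative to the Nanog-null line 2 rose and 4 fell. The shares called were 71.4%, 28.6% and 85.7% in that order, beside 48.5%, 13.2% and 54.4% of all tested genes. Bnip3 (ENSMUSG00000078566, chr7:138890836-138909519, minus strand) read 57.0, 48.8 and 58.9 CPM in the Nanog-null line, 49.6, 40.7 and 50.1 CPM in the Esrrb line and 20.1, 21.8 and 24.9 CPM in the Esrrb+Nanog line. All 3 Esrrb+Nanog libraries were under 25 CPM and all others above 40 CPM. Bnip3 was 2.10-fold lower than in the Esrrb line (log2 change of -1.07 ± 0.11, adjusted p = 0.000133) and 2.46-fold lower than in the Nanog-null line (log2 change of -1.30 ± 0.11, adjusted p = 2.33e-06). In the Esrrb line its log2 change was -0.23 ± 0.11 (adjusted p = 0.0947), called on leaving out Nanog-null replicate 2 (0.0342), or with library totals (0.0477), no low-count filter (0.0462) or a replicate block (0.0391). Egln3 (ENSMUSG00000035105, chr12:54178981-54203860, minus strand), a prolyl hydroxylase that marks HIF for removal, read 19.2, 24.1 and 25.8 CPM in the Nanog-null line, 12.3, 8.56 and 14.6 CPM in the Esrrb line and 8.23, 9.49 and 7.81 CPM in the Esrrb+Nanog line. Its Nanog-null libraries were the highest, and the other 2 lines overlapped. Egln3 fell in the Esrrb line (log2 change of -0.97 ± 0.18, adjusted p = 0.000755) and fell 2.72-fold in the Esrrb+Nanog line relative to the Nanog-null line (log2 change of -1.44 ± 0.18, adjusted p = 4.12e-05). From the Esrrb to the Esrrb+Nanog line Egln3 was at -0.47 ± 0.18 (adjusted p = 0.115), called on leaving out Esrrb replicate 2 (0.0119), or with no low-count filter (0.00757). Egln1, the main prolyl hydroxylase, fell in the Esrrb+Nanog line relative to the Esrrb line (log2 change of -0.40 ± 0.10, adjusted p = 0.0273) and the Nanog-null line (log2 change of -0.50 ± 0.11, adjusted p = 0.00171). The first call ended on leaving out Nanog-null replicate 3 (0.0555), Esrrb replicate 1 (0.115), 2 (0.0562), Esrrb+Nanog replicate 1 (0.0512), 2 (0.0986) or 3 (0.0761), or with library totals (0.0644).

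Vegfa (ENSMUSG00000023951, chr17:46016993-46032369, minus strand), the angiogenic growth factor, read 39.9, 46.6 and 42.0 CPM in the Nanog-null line, 21.4, 13.2 and 19.9 CPM in the Esrrb line and 26.0, 23.2 and 18.9 CPM in the Esrrb+Nanog line. All Nanog-null libraries were above all others. It fell 2.36-fold in the Esrrb line (log2 change of -1.24 ± 0.16, adjusted p = 8.59e-05) and 1.89-fold in the Esrrb+Nanog line (log2 change of -0.92 ± 0.16, adjusted p = 0.000555). Its log2 change between those lines was 0.32 ± 0.17 (adjusted p = 0.235), called higher with no low-count filter (0.0264). Hif1a (ENSMUSG00000021109, chr12:73901375-73947530, plus strand), the oxygen-sensitive HIF subunit that is controlled largely as protein, read 184, 156 and 168 CPM in the Nanog-null line, 198, 204 and 215 CPM in the Esrrb line and 192, 185 and 194 CPM in the Esrrb+Nanog line. The Nanog-null libraries were all below the 6 others, by a small margin. Hif1a rose in the Esrrb line (log2 change of 0.28 ± 0.066, adjusted p = 0.00416) and in the Esrrb+Nanog line relative to the Nanog-null line (log2 change of 0.17 ± 0.066, adjusted p = 0.0474). The second call ended on leaving out Nanog-null replicate 2 (0.188), 3 (0.122), Esrrb replicate 1 (0.0595), Esrrb+Nanog replicate 1 (0.08), 2 (0.0662) or 3 (0.112), or with no low-count filter (0.0722), only those 2 lines fitted (0.0569) or DESeq2 (0.054).

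Ankrd37 (ENSMUSG00000050914, chr8:45996902-46005707, minus strand), a small HIF target, read 0.649, 1.27 and 1.24 CPM in the Nanog-null line, 2.25, 2.77 and 2.27 CPM in the Esrrb line and 1.29, 2.05 and 2.42 CPM in the Esrrb+Nanog line. It was the lowest of the 33 genes per kilobase in the Nanog-null line and rose in the Esrrb line (log2 change of 1.18 ± 0.28, adjusted p = 0.0048). The rise in the Esrrb+Nanog line relative to the Nanog-null line (log2 change of 0.84 ± 0.29, adjusted p = 0.0283) ended on leaving out Nanog-null replicate 1 (0.103), Esrrb+Nanog replicate 2 (0.0739) or 3 (0.119). Ndrg1 (ENSMUSG00000005125, chr15:66929318-66969640, minus strand), a stress-induced gene, read 6.63, 8.78 and 8.13 CPM in the Nanog-null line, 12.6, 11.7 and 12.7 CPM in the Esrrb line and 7.09, 9.21 and 11.2 CPM in the Esrrb+Nanog line. It rose in the Esrrb line, whose libraries were all above the 6 others (log2 change of 0.65 ± 0.16, adjusted p = 0.00559). Its log2 changes in the Esrrb+Nanog line were -0.43 ± 0.16 (adjusted p = 0.0997) against the Esrrb line, called on leaving out Esrrb+Nanog replicate 3 (0.0364), or with no low-count filter (0.0367), and 0.22 ± 0.16 (adjusted p = 0.273) against the Nanog-null line. The labels and the table do not state strand or counting rules. Of the 33 genes, 13 share exon bases with a gene on the other strand, and their counts could include antisense reads. The shared part was above 5% of exon bases for 6 of them. It was 406 bases for Ankrd37 (shared with Ufsp2 and Lrp2bp), 504 for Bnip3 (Gm45507), 741 for Gpi1 (Gm26762), 556 for Ndrg1 (Gm17035 and Gm2895), 330 for Hif1a (Gm15283) and 748 for Pfkp (Pitrm1). Exons of 4 genes overlap another gene on the same strand, over 1262 bases for Pfkfb2 (Gm29427), 767 for Pkm (Gm49759), 341 for Pfkm (Gm26513) and 148 for Hif1a (Gm49321). How such reads were assigned is not stated.

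**Figure D4:**
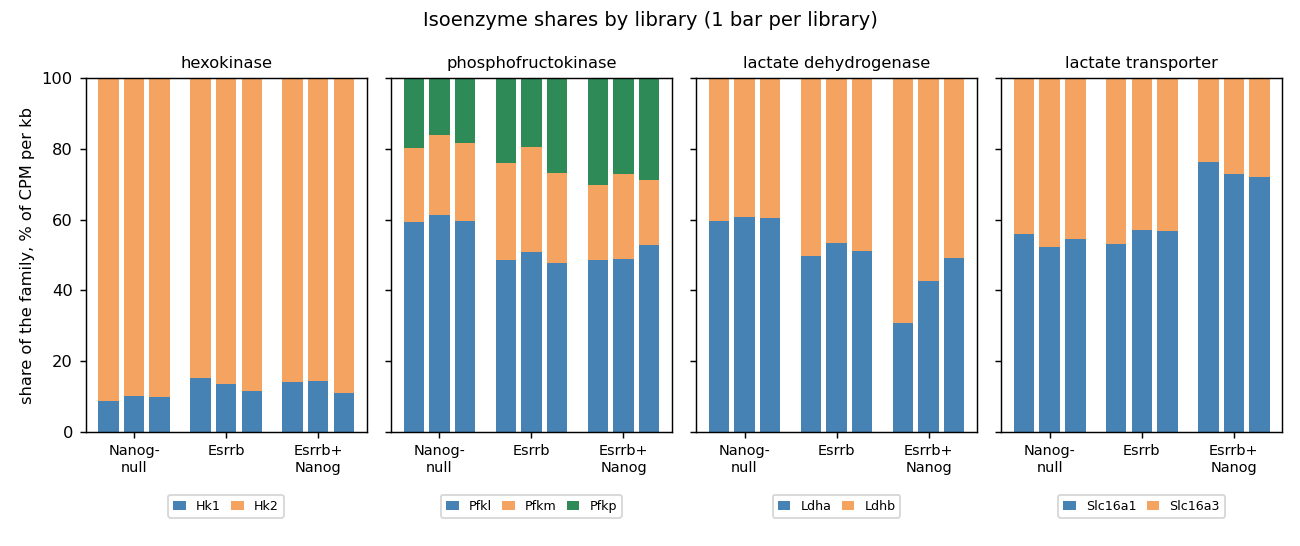
Share of each isoenzyme (vertical axis, percent of the CPM per kilobase of its family) in each of the 9 libraries (horizontal axis), 1 panel per family, over the union of exons. The Ldhb share is larger in each Esrrb+Nanog library than in any Nanog-null library, and the Slc16a3 share is smaller in the 3 Esrrb+Nanog libraries than in the 6 others.

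Length-scaled levels allow isoenzymes to be set against each other within a library. Ldhb made up 39.7% ± 0.493 of lactate dehydrogenase RNA in the Nanog-null line, 48.5% ± 1.77 in the Esrrb line and 59.1% ± 9.38 in the Esrrb+Nanog line, where the libraries read 69.3%, 57.4% and 50.8%. The 3 lines did not overlap in this share. With longest transcripts as lengths the shares were 30.3%, 38.4% and 49.1%, in the same order of lines. Both subunits together came to 550.2 ± 20.9, 751 ± 55.0 and 565 ± 29.8 CPM per kilobase (SD, n = 3). The sum was thus highest in the Esrrb line, while the Ldhb share was highest in the Esrrb+Nanog line. By plain CPM, the ratio of Ldha to Ldhb was 0.935, 1.57 and 2.04 in the Esrrb+Nanog libraries, all below the 3.13 to 3.25 of the Nanog-null libraries.

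Slc16a3 was 45.7% ± 1.80 of the 2 lactate transporters in the Nanog-null line, 44.3% ± 2.11 in the Esrrb line and 26.1% ± 2.28 in the Esrrb+Nanog line. The Esrrb+Nanog libraries, at 23.6%, 27.0% and 27.9%, were below all 6 others. Among phosphofructokinases, Pfkl held 60.1% ± 1.04, 49.0% ± 1.52 and 50.1% ± 2.34 in the 3 lines, and Pfkp held 17.9% ± 1.86, 23.4% ± 3.65 and 28.6% ± 1.52. Pfkm held its largest share in the Esrrb line, 27.6% ± 2.16, against 22.0% ± 0.921 and 21.3% ± 2.68. Hk2 dominated the hexokinase pair, at 90.5% ± 0.758, 86.6% ± 1.78 and 86.9% ± 1.93. The hexokinase sum was 59.0 ± 2.38 CPM per kilobase in the Nanog-null line, 100.4 ± 12.6 in the Esrrb line and 94.8 ± 3.61 in the Esrrb+Nanog line. Aldoa and Eno1 held nearly all aldolase and enolase RNA in every line. Pdk1 held 79.8% ± 0.795, 82.8% ± 1.24 and 77.2% ± 3.20 of the RNA of Pdk1, Pdk2 and Pdk3. Pdk4, another pyruvate dehydrogenase kinase, was left out of this share and averaged 13.2, 21.3 and 16.2 CPM in the same order of lines. Over 42 tests of shares, an exact permutation test (two-sided, 3 libraries against 3) cannot go below 0.1. The 3 comparisons of the Ldhb share and both Slc16a3 comparisons with the Esrrb+Nanog line reached that value, with an adjusted p of 0.175. Many other shares reached the same values, among them Aldoc in all 3 comparisons, and Hk2 and Pfkl in both comparisons with the Nanog-null line. The test thus does not set the Ldhb and Slc16a3 shares apart from these.

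Genes next to the pathway were read from 7 wider lists of 114 genes. Of 11 genes for entry of pyruvate into mitochondria and its control, 7 were called higher and 1 lower in the Esrrb line. These calls are relative to the Nanog-null line, with a median log2 change of 0.40. The higher genes include Pdk4, a pyruvate dehydrogenase kinase, and the lower gene is Pdp1, a pyruvate dehydrogenase phosphatase. The kinases hold pyruvate back, so the counts do not all point to more entry. Pdk4 was also among the genes lower in the Esrrb+Nanog line than in the Esrrb line. Pdhb, a pyruvate dehydrogenase subunit, averaged 190.1 ± 8.98 CPM in the Nanog-null line, 318 ± 9.40 CPM in the Esrrb line and 279 ± 11.4 CPM in the Esrrb+Nanog line (log2 change of 0.74 ± 0.058, adjusted p = 1.86e-06 for the Esrrb line), and Pcx, pyruvate carboxylase, averaged 56.8 ± 4.55 CPM in the Nanog-null line, 95.4 ± 7.36 CPM in the Esrrb line and 83.7 ± 5.85 CPM in the Esrrb+Nanog line (log2 change of 0.75 ± 0.082, adjusted p = 2.14e-05). In the Esrrb+Nanog line 4 of the 11 were lower than in the Esrrb line, among them Pdha1 (log2 change of -0.28 ± 0.055, adjusted p = 0.00614) and Dlat (log2 change of -0.26 ± 0.049, adjusted p = 0.00579), both of the pyruvate dehydrogenase complex. Against the Nanog-null line 6 were higher and 2 lower. Of 17 genes of the tricarboxylic acid cycle, 5 were higher and 1 lower in the Esrrb line relative to the Nanog-null line, 1 was lower in the Esrrb+Nanog line than in the Esrrb line, and 7 were higher and 2 lower there than in the Nanog-null line. Sucla2, a succinyl-CoA ligase subunit, rose in the Esrrb line (log2 change of 0.50 ± 0.072, adjusted p = 0.000144), and Idh2, mitochondrial isocitrate dehydrogenase, fell from the Esrrb to the Esrrb+Nanog line (log2 change of -0.39 ± 0.098, adjusted p = 0.0241). The Idh2 call ended on leaving out Esrrb replicate 1 (0.11), 3 (0.0611), Esrrb+Nanog replicate 2 (0.085) or 3 (0.0811), or with library totals (0.0609). The shares of all genes called in each comparison, given above, are the background for the counts of these lists.

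Of 8 pentose phosphate genes, 2 rose (Rpe and Taldo1) and 2 fell (G6pdx and H6pd) in the Esrrb line relative to the Nanog-null line. From the Esrrb to the Esrrb+Nanog line 2 fell, and against the Nanog-null line 1 rose (Rpe) and 5 fell. G6pdx, glucose-6-phosphate dehydrogenase, the entry enzyme, averaged 104 ± 5.38 CPM in the Nanog-null line, 79.2 ± 1.30 CPM in the Esrrb line and 64.3 ± 6.81 CPM in the Esrrb+Nanog line and fell in each comparison, with log2 changes of -0.39 ± 0.077 (adjusted p = 0.00132), -0.30 ± 0.077 (adjusted p = 0.0255) and -0.69 ± 0.077 (adjusted p = 1.79e-05). The middle call ended on leaving out Esrrb replicate 1 (0.0781), 3 (0.0561), Esrrb+Nanog replicate 1 (0.0658) or 2 (0.0642), or with only those 2 lines fitted (0.051). Of 18 tested genes among 23 other isoenzymes and transporters, 1 rose and 4 fell in the Esrrb line, 3 rose and 2 fell from there to the Esrrb+Nanog line, and 3 rose and 7 fell against the Nanog-null line. Emb, embigin, a partner protein of monocarboxylate transporters, averaged 112 ± 10.0 CPM in the Nanog-null line, 33.8 ± 2.01 CPM in the Esrrb line and 64.7 ± 11.8 CPM in the Esrrb+Nanog line, with log2 changes of -1.73 ± 0.12 (adjusted p = 7.37e-07), 0.94 ± 0.12 (adjusted p = 0.0005) and -0.79 ± 0.12 (adjusted p = 0.000138). Emb was thus lowest in the Esrrb line. Tigar, a phosphatase that lowers fructose-2,6-bisphosphate, averaged 55.8 ± 2.96 CPM in the Nanog-null line, 99.9 ± 7.31 CPM in the Esrrb line and 121 ± 10.9 CPM in the Esrrb+Nanog line and rose in each comparison, with log2 changes of 0.84 ± 0.081 (adjusted p = 7.99e-06), 0.28 ± 0.079 (adjusted p = 0.037) and 1.12 ± 0.081 (adjusted p = 6.82e-07). Its middle call ended on leaving out Esrrb replicate 1 (0.134), 3 (0.124), Esrrb+Nanog replicate 2 (0.106) or 3 (0.133), or with only those 2 lines fitted (0.0551). Of 3 tested gluconeogenesis genes among 6 listed, 1 rose and 2 fell in the Esrrb line, Pck2 among the latter (log2 change of -0.89 ± 0.27, adjusted p = 0.0168), 1 fell from there to the Esrrb+Nanog line, and Pck2 fell against the Nanog-null line (log2 change of -1.36 ± 0.27, adjusted p = 0.00132).

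Among 14 HIF subunits and regulators, 4 rose and 3 fell in the Esrrb line, 1 fell from there to the Esrrb+Nanog line, and 4 rose and 4 fell against the Nanog-null line. Epas1, the second HIF alpha subunit, averaged 16.3 ± 1.51 CPM in the Nanog-null line, 86.5 ± 6.80 CPM in the Esrrb line and 70.6 ± 18.2 CPM in the Esrrb+Nanog line, 5.28-fold higher in the Esrrb line (log2 change of 2.40 ± 0.17, adjusted p = 7.67e-07) and 4.30-fold higher in the Esrrb+Nanog line (log2 change of 2.11 ± 0.17, adjusted p = 1.33e-06) than in the Nanog-null line. Of 32 tested genes among 35 other listed HIF targets, 11 rose and 7 fell in the Esrrb line, 1 rose and 9 fell from there to the Esrrb+Nanog line, and 10 rose and 13 fell against the Nanog-null line. Ak4, a mitochondrial adenylate kinase, averaged 69.1 ± 6.68 CPM in the Nanog-null line, 268 ± 60.6 CPM in the Esrrb line and 199.9 ± 12.9 CPM in the Esrrb+Nanog line (log2 change of 1.95 ± 0.14, adjusted p = 7.79e-07 for the Esrrb line). Ddit4, an inhibitor of mTORC1 signalling, averaged 110.1 ± 24.1 CPM in the Nanog-null line, 70.2 ± 13.2 CPM in the Esrrb line and 28.1 ± 3.44 CPM in the Esrrb+Nanog line, and it fell from the Esrrb to the Esrrb+Nanog line (log2 change of -1.32 ± 0.17, adjusted p = 0.0005). Of these 32 HIF targets, 56.25%, 31.25% and 71.9% were called in the 3 comparisons in that order, beside 48.5%, 13.2% and 54.4% of all tested genes. Relative to the Nanog-null line they held many calls in both directions. From the Esrrb to the Esrrb+Nanog line 9 of 10 calls were lower, with a median log2 change of -0.32 over the list.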

How the data were processed

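RNA of 9 libraries was sequenced after DNase treatment and depletion of ribosomal RNA, with NEBNext Ultra II libraries, per the labels' protocols. The authors deposited a table of whole, unscaled read counts for each Ensembl ID, 1 column per library, per the file headers and the values. The submitters' processing notes name bcl2fastq 2.19.1, STAR 2.5.3a and the build mm10. How reads were assigned to genes, and whether by strand, is not stated by the labels or headers, and antisense reads cannot be told apart. The table had 15 columns of libraries, of which 9 matched the samples by title and 6 were not used here.

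The software was R 4.3.3, edgeR 4.0.16 and limma 3.58.1. The default low-count rule of edgeR left 16198 of 52636 IDs. A quasi-likelihood model with trimmed mean of M values factors and line as the only term was fitted to all 9 libraries. Benjamini-Hochberg adjustment covered all tested genes, and 0.05 was the threshold. Unless DESeq2 or a permutation test is named, each adjusted p is from edgeR. Standard errors were worked back from the F statistic. CPM values carry no pseudocount. Symbols, positions and lengths came from GENCODE M21. The symbol Aldoa had several IDs, and the one that overlaps the RefSeq gene was used. Isoenzyme shares used CPM per kilobase over the union of exons. The procedure was tested on simulated counts with few changed genes and the same spread setting for every gene. That setting differs from these data, so it does not measure error rates here.

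The 33 genes and the 7 wider lists were chosen with earlier results of these data known. By rule, values in every library were given for genes called with a log2 change of at least 0.58 in size, and for Slc2a1, Gapdh, Ldha, Pgk1, Hif1a and Vegfa. From each wider list up to 2 called genes per comparison were eligible, those with the smallest adjusted p whose higher group averaged 5 CPM or more. Slc2a3 and Eno1b were chosen after their values were seen. The alternatives were median-of-ratios factors, library totals alone, DESeq2 1.42.0, no low-count filter, at least 5 CPM in 3 libraries, only the compared 2 groups, a block for replicate number, and each library left out in turn. For lengths and promoters they were the longest transcript and the 250 bases before the start.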

Additional observations from a re-analysis of the deposited data

How the results depend on the processing

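Every call of the 33 genes was recomputed under 16 alternatives. Of the called genes, 12 of 17 (Esrrb over Nanog-null), 8 of 14 (Esrrb+Nanog over Esrrb) and 18 of 23 (Esrrb+Nanog over Nanog-null) stayed called in every alternative, and no called change turned its direction. Of the genes not called, 6, 8 and 5 were called in at least 1 alternative. With library totals alone, and with no low-count filter, 8 genes were called lower in the first comparison and 1 higher in the second. Leaving out 1 library gave 3 to 7 genes called lower in the first comparison (3 without Esrrb replicate 3). In the second it gave 0 to 1 higher (Slc16a1, without Esrrb replicate 2 or Esrrb+Nanog replicate 1) and 8 to 16 lower (8 without Esrrb replicate 1). In the third it gave 4 to 8 higher (4 without Esrrb+Nanog replicate 3). Over all genes the second comparison gave 1105 to 2374 calls, with 1105 without Esrrb replicate 1, 1378 without Esrrb replicate 3 and 1215 without Esrrb+Nanog replicate 2. The cause was not tested. Read before the start only, AAGGTCA was in 1 gene, since the Tpi1 match lies after the start.

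Log2 changes that turned sign were near 0 and not called in the fit reported. In the first comparison Aldoa was at -0.028 with library totals and -0.015 with at least 5 CPM in 3 libraries, and Pkm at -0.016 and -0.0024. In the third, library totals gave 0.010 for Slc16a1 and 0.0045 for Slc2a3. Leaving out 1 library gave -0.028 to 0.069 for Aldoa, -0.012 to 0.058 for Pkm and -0.023 to 0.25 for Pfkfb2 in the first comparison. In the second it gave -0.15 to 0.021 for Hk2, -0.29 to 0.0039 for Aldoc, -0.25 to 0.043 for Eno2, -0.29 to 0.0040 for Ldhb and -0.040 to 0.26 for Slc2a3. In the third it gave -0.059 to 0.023 for Slc16a1 and -0.24 to 0.078 for Slc2a3.

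Replicate numbers are shared between lines. Same-numbered libraries deviated together in 3 of 9 pairs (correlation over 0.1, range -0.025 to 0.278). In both other lines, 4 of 9 libraries correlated best with their own number. Whether same-numbered libraries share a batch cannot be told from these correlations, and the labels name no batch. With the replicate number as a block, 12 genes were higher and 6 lower in the first comparison, 0 and 15 in the second and 8 and 16 in the third. Depth limits the rarest genes most, such as Ankrd37 at 0.649 to 2.77 CPM.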
